A study of Mus musculus with 32 samples.

Results

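Calhm1, Calhm2 and Calhm3 were described across single mouse eggs and 2-cell embryos labelled as knockout or WT for Trp53, the gene of the transcription factor p53. The 3 genes were taken by symbol from 54532 genes in the expression table. They were chosen by a measured value, because Calhm3 was high in late WT 2-cell embryos and listed at 0 in every late embryo labelled MZ-KO. Levels of the 3 genes in late embryos, and the step from early to late embryos, are therefore given as a description with no test.

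CALHM proteins assemble into large-pore ion channels of the plasma membrane that can pass ATP as well as ions. In mammals, CALHM1 and CALHM3 together form the channel through which sweet-, bitter- and umami-sensing taste cells release ATP onto nerve fibres. The mouse 2-cell embryo is the stage at which most of the embryo's own genes are first transcribed, while RNA stored in the egg is degraded.

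The 32 libraries were made with SMART-seq, which copies polyadenylated RNA into cDNA, from 1 egg or embryo each. The groups were 3 Trp53 KO metaphase II eggs and 3 WT eggs, 6 early Trp53 MZ-KO and 8 early WT 2-cell embryos, and 6 late Trp53 MZ-KO and 6 late WT 2-cell embryos. MZ-KO embryos came from Trp53 KO mothers and Trp53 KO fathers, and WT material came from Trp53 flox/flox animals that kept exons 2 to 10, the exons removed in the KO allele. The deletion was made with Ddx4::Cre, which acts in germ cells, and the colony had a mixed Bl6/C57 background. Early embryos were collected 28 to 32 hours after the hormone hCG and late embryos, cultured in KSOM medium, at 48 hours. The age of the females and the number of females behind a group are not given in the sources used here. The p-values below therefore measure the spread between single eggs or embryos. Each library holds a whole egg or embryo, so fewer cells with a transcript and less of it per cell cannot be told apart.

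The values are the authors' FPKM, reads scaled by gene length and library depth. Library depth, worked out from the smallest values, ran from 7210000 to 27600000 reads. Of 10 egg and 2-cell markers, 6 reached FPKM 1 in all eggs of both genotypes, 7 in all early MZ-KO and 9 in all early WT embryos, and 8 in all late embryos of both. None of 8 cumulus and granulosa cell markers reached it in any library. Of 4 sperm markers 1, Prm1, reached FPKM 1 in all late libraries. Its values were 6.59 to 13.5 FPKM in late MZ-KO and 8.82 to 27.6 FPKM in late WT embryos. Of 5 blood and immune markers 1, Hba-a1, reached FPKM 1 in all late libraries of both genotypes. On the first principal component WT early library 3 lay at -41.3, apart from all other eggs and early embryos. Trp53 itself averaged 0.769 ± 0.326 FPKM in early MZ-KO embryos (SD, n = 6) and 6.05 ± 2.64 FPKM in early WT embryos (SD, n = 8), a log2 difference of -1.92 (limma adjusted p = 0.00126). It averaged 8.19 ± 1.75 FPKM in KO eggs and 7.86 ± 2.13 FPKM in WT eggs (SD, n = 3 each), and 2.82 ± 1.38 FPKM in late MZ-KO embryos and 3.24 ± 2.31 FPKM in late WT embryos (SD, n = 6 each). In those 2 stages the Trp53 value did not separate the genotypes (limma adjusted p = 0.956 in eggs and 0.955 in late embryos), so the knockout groups are named by their labels.

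The 3 genes lie side by side on the minus strand of chromosome 19 (build mm10, GENCODE release M21). Calhm3 (ENSMUSG00000094219) spans bases 47151609 to 47157764, Calhm1 (ENSMUSG00000079258) spans 47140909 to 47144254 and Calhm2 (ENSMUSG00000033033) spans 47105353 to 47138294. There are 7354 bases between Calhm3 and Calhm1 and 2614 bases between Calhm1 and Calhm2. The annotated Calhm3 transcript has 3 exons and 1044 bases, all coding, with an ATG start, 348 codons including the stop and no stop codon inside the frame. GENCODE marks this transcript as an inferred model, so its exons and frame are predicted. GENCODE annotates Calhm3 as protein coding, whereas the RefSeq gene table for GRCm38.p6 lists it as a pseudogene. No other gene of the table overlaps Calhm1 or Calhm3.

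Calhm1 and Calhm3 are related genes, so shared sequence could blur their values. Their coding sequences were 59.5% identical when aligned, and the longest identical run between their annotated transcripts was 13 bases. Introns were not compared. That run lies in the first exon of both genes and is shown in capitals, with the bases on either side. It is the longest stretch that both transcripts share (GENCODE transcripts, minus strand, chr19:47157598-47157700 for Calhm3 and chr19:47144008-47144110 for Calhm1).
Calhm3: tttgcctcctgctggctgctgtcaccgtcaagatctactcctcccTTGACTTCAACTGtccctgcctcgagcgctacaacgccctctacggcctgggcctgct
Calhm1: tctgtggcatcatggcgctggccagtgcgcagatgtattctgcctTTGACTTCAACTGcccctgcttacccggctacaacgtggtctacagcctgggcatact
Calhm2 and Calhm3 were 50.8% identical in coding sequence, with a longest identical run of 14 bases between transcripts.

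Calhm3 had no read in either set of eggs and was present from the early 2-cell stage in WT embryos. It was listed at 0 in all 3 KO eggs and in all 3 WT eggs, where 1 read would have been worth 0.0074 to 0.012 FPKM. In early MZ-KO embryos Calhm3 was listed at 0 in 5 of 6 libraries and at 0.581 FPKM in library 4. In the 8 early WT embryos the lowest value was 0.141 FPKM, the median 1.1 FPKM and the highest, in library 3, 5.272 FPKM. Every early WT embryo held Calhm3 reads, while the MZ-KO library with reads lay inside the WT range.

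In late MZ-KO embryos Calhm3 was listed at 0 in all 6 libraries, where 1 read would have been worth 0.00589 to 0.0151 FPKM. In the 6 late WT embryos it had 8.059, 11.672, 18.201, 31.969, 39.286 and 46.418 FPKM, behind which stood 971 to 5521 reads. The groups did not overlap, as was the case in the same direction for 1.80% of genes above 0, and the WT embryos differed among themselves by a factor of 5.76. The mean of 25.9 ± 15.6 FPKM (SD, n = 6) placed Calhm3 at rank 1174 of 29625 genes above 0 in late WT embryos. This is a level relative to the genomic span, and 1044 of the 6156 bases of Calhm3 are annotated as exonic. Late WT embryos averaged 18.3 times the early WT mean of 1.42 ± 1.69 FPKM (SD, n = 8), and every late WT embryo lay above every early one, as was the case for 14.2% of genes above 0.

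Calhm1 was seen at a low level in WT embryos and had no read in any MZ-KO embryo. It was listed at 0 in all 6 early MZ-KO libraries, where 1 read would have been worth 0.0134 to 0.0195 FPKM. In early WT embryos Calhm1 was at 0 in library 8, the library with the fewest reads, had a median of 0.269 FPKM and reached 1.652 FPKM in library 3. It was listed at 0 in all 6 late MZ-KO libraries. In late WT embryos it had 0, 0, 0.279, 0.345, 0.474 and 0.597 FPKM. The genotypes overlapped at both stages only through WT libraries at 0. Calhm1 was also at 0 in all KO and all WT eggs.

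**Figure D1:**
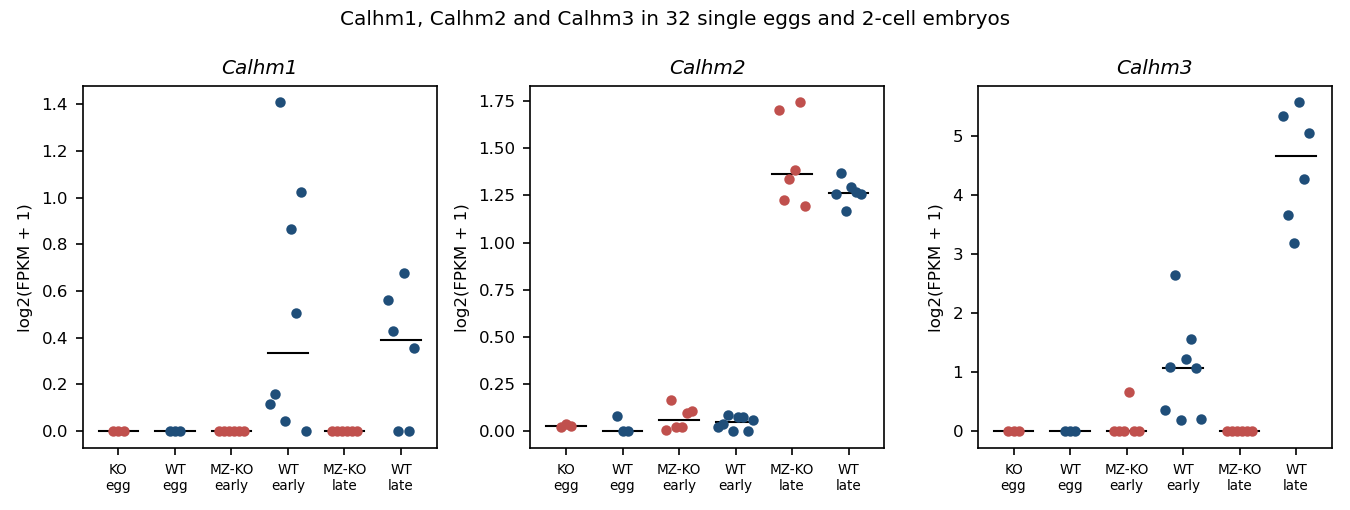
FPKM of Calhm1, Calhm2 and Calhm3 in each library, as log2(FPKM + 1) on the vertical axes, for KO eggs, WT eggs, early MZ-KO, early WT, late MZ-KO and late WT 2-cell embryos, with KO and MZ-KO in red and WT in blue. Each point is 1 egg or embryo and each line the group median. Late WT embryos lie between 8.059 and 46.418 FPKM for Calhm3 while all late MZ-KO embryos are at 0. Calhm2 is listed above 0 in both late groups, a value that cannot be separated from that of Pdcd11.

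The comparison of genotypes at the early stage was not itself used to choose the genes, although its difference runs in the direction of the one used. Calhm3 was picked as activated in late WT embryos, which draws on its early values. Its tests with early embryos, here and against eggs, are therefore not independent of the choice. Of 12 tests planned for the 3 genes in eggs and early embryos, 9 had a value, and their exact p-values are unadjusted. Calhm3 was lower in early MZ-KO embryos, which averaged 0.0968 FPKM, than in early WT embryos, which averaged 1.42 FPKM (log2 difference -0.93, exact permutation test, two-sided p = 0.0127). Calhm1 was lower in early MZ-KO embryos as well, at 0 in all of them, against 0.52 FPKM in early WT embryos (log2 difference -0.52, exact permutation test, two-sided p = 0.00466). Of all 34721 genes above 0 in this comparison, 4.31% were lower at an exact p below 0.05. The smallest p these group sizes allow is 0.000666. Neither gene reached FPKM 1 in enough libraries for the limma fit, and in a fit of all genes with no filter the adjusted p was 0.386 for Calhm3 and 0.454 for Calhm1. With any 1 library left out, the exact p stayed between 0.00155 and 0.0249 for Calhm3 and between 0.00117 and 0.00932 for Calhm1.

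Between WT eggs and early WT embryos the appearance of both genes was close to the limit of the test. Calhm3 was above 0 in 8 of 8 early WT embryos and in 0 of 3 WT eggs, without overlap, as were 12.3% of the 32899 genes above 0 in this comparison in the same direction. The log2 difference was 1.04 ± 0.45 (SE), with a limma adjusted p of 0.0687 and an exact permutation p of 0.0121, the smallest that these group sizes allow. With a pseudocount of 0.1 the limma adjusted p was 0.0104, in a fit of all 6 groups 0.0432 and with no filter 0.187. It was 0.0436 and 0.0434 without WT early library 4 or 8, and lay between 0.0505 and 0.152 without any other single library. Calhm1 was above 0 in 7 of 8 early WT embryos and in 0 of 3 WT eggs (log2 difference 0.52, exact permutation test, two-sided p = 0.0485), and 28.6% of the genes above 0 had an exact p below 0.05 in either direction. Its p was 0.0667 without any of early WT libraries 1 to 7 and 0.133 without any 1 WT egg. In the knockout-labelled line, Calhm3 was above 0 in 1 of 6 early MZ-KO embryos and in 0 of 3 KO eggs (log2 difference 0.11, exact permutation p = 1). Calhm1 had no read in either of these groups.

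Calhm1 and Calhm3 did not keep a fixed ratio in WT embryos. In late WT embryos 114 Calhm1 reads stood beside 18496 Calhm3 reads, and in early WT embryos 260 Calhm1 reads beside 1268 Calhm3 reads. Per 100 Calhm3 reads, single late WT libraries held 0 to 1.62 Calhm1 reads, with a median of 0.562. Single early WT libraries held 0 to 51.6, with a median of 13.4. The highest late value lay below the 7 early libraries that held Calhm1 reads. Calhm3 averaged more in late than in early WT embryos, whereas Calhm1 averaged 0.282 ± 0.245 FPKM in late WT embryos (SD, n = 6) and 0.52 ± 0.599 FPKM in early WT embryos (SD, n = 8), with ranges that overlap. Early WT libraries 3, 5, 6 and 7 had the most reads of both genes.

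WT early library 3, which stands apart on the first principal component, had the highest value of both genes among early embryos. Without it the log2 difference of early MZ-KO over early WT embryos was -0.70 for Calhm3 and -0.39 for Calhm1, and both exact permutation p-values stayed below the threshold of 0.05. The other early library that stood apart for Calhm3 was MZ-KO library 4, with about 63 reads against 0 in the other 5. On that component, where late embryos ranged from 103 to 138, it lay at -72.7. This was the highest value of the early MZ-KO embryos, of which the lowest was -80.2. Early MZ-KO libraries 1 and 3, without Calhm3 reads, lay close by, at -73.0. WT early libraries 1, 4 and 8, which held Calhm3 reads, lay at -79.0, -80.4 and -77.7. WT early libraries 5, 6 and 7 lay at -70.5, -68.0 and -66.9, so that the 4 WT libraries with the most reads of both genes were nearer to the late embryos than every early MZ-KO library. The part that the position on this component had in the early difference was not tested.

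The promoter window of Calhm1 is shown because Calhm1 had reads in WT libraries alone (RefSeq, GRCm38.p6, chr19:47144125-47144424, minus strand, 250 bases before to 50 after the RefSeq gene start, with the ATG in capitals). RefSeq starts the gene at this ATG, inside the GENCODE gene given above, so the window reaches less far upstream of the GENCODE start.
Calhm1 promoter: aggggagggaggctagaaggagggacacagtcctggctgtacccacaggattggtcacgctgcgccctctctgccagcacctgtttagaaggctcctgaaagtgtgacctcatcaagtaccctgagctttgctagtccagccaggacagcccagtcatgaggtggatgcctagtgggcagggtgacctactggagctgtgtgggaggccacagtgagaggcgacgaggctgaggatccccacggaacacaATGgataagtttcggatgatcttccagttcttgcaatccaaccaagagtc
On both strands this window held no match to the p53 half-site consensus, which 8.36% of 32851 promoter windows held. It also held no TATAAA, found in 13.6% of windows. The Calhm2 window held 1 p53 half-site, 176 bases before the gene start. Calhm3 is not in the promoter table.

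Calhm2 was above FPKM 1 in all late embryos of both genotypes, and its value cannot be separated from that of its neighbour Pdcd11, a gene for ribosomal RNA processing. Calhm2 had 1.285, 1.339, 1.529, 1.615, 2.251 and 2.348 FPKM in late MZ-KO embryos. In late WT embryos it had 1.25, 1.387, 1.394, 1.411, 1.45 and 1.582 FPKM. The 2 groups overlap, with the 3 highest values in MZ-KO embryos. In early embryos it lay between 0.003 and 0.119 FPKM in MZ-KO libraries and between 0 and 0.059 FPKM in WT libraries (log2 difference 0.02, exact permutation p = 0.372). KO eggs had 0.014, 0.019 and 0.027 FPKM, against 0, 0 and 0.057 FPKM in WT eggs (exact permutation p = 1, where 3 against 3 cannot go below 0.1). Early over egg, the exact permutation p was 0.452 in the knockout-labelled line and 0.533 in WT.

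Of the 32942 bases that the table's Calhm2 gene covers, 26513 lie inside Pdcd11, which runs on the plus strand. The shorter Calhm2 transcript with a full coding sequence covers bases 47131823 to 47138294, nearly all of it outside Pdcd11. Whether counting used strand is not given in the sources used here. Among pairs in which a gene lies inside a longer one on the opposite strand, the longer gene never had fewer reads than the inner one in 129 of 130 pairs. The ratio of Calhm2 to Pdcd11 FPKM lay between 0.82 and 1.09 in late MZ-KO embryos and between 0.99 and 1.13 in late WT embryos. Over the 32 libraries, which differ in stage and depth, Pdcd11 was the gene most like Calhm2 of 14153 genes (Pearson r = 0.993, not adjusted for either). Samd11 and Cst7 came next, with r of 0.989 and 0.986, and their means were also at most 0.123 FPKM in every egg and early group.

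**Figure D2:**
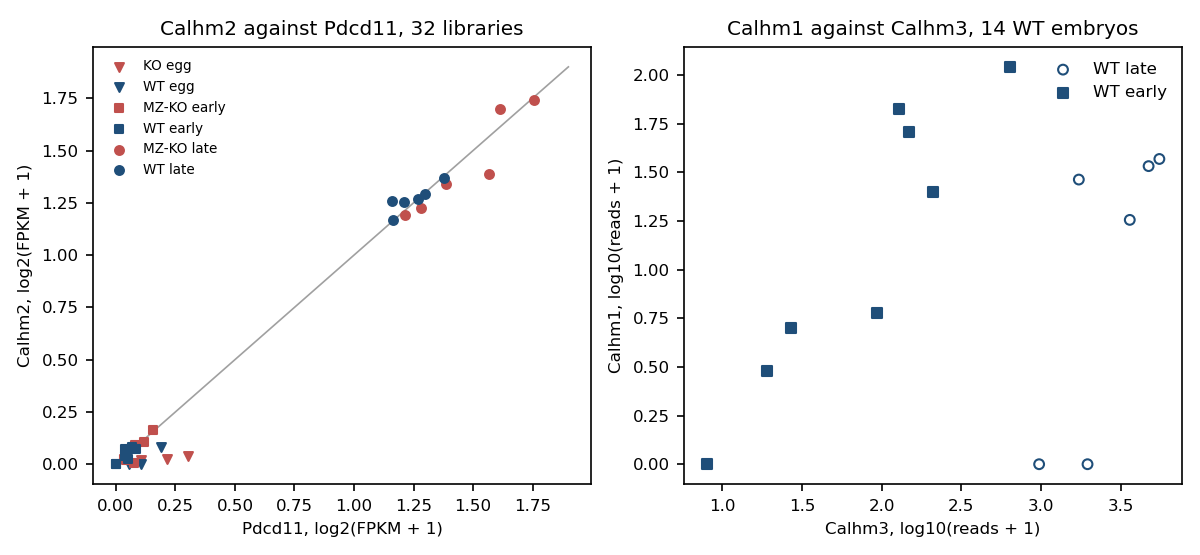
Left, Calhm2 against Pdcd11 as log2(FPKM + 1) in 32 libraries, with KO and MZ-KO in red, WT in blue and a line of equal values; the late libraries lie along the line, at ratios of 0.82 to 1.13. Right, reads of Calhm1 against reads of Calhm3 as log10(reads + 1) on both axes in 6 late WT and 8 early WT embryos; late embryos have more Calhm3 reads than every early one and at most 36 Calhm1 reads.

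Genes around the cluster had reads in late MZ-KO embryos, in which Calhm1 and Calhm3 had none. Wholly within 100 kb of the cluster lie 7 other annotated genes, of which 5 had reads in all 6 late MZ-KO libraries. These 5 were tested between late MZ-KO and late WT embryos, where 31.9% of 8772 genes were called. Of the called genes 1624 were higher and 1178 lower, or 1110 and 1637 under median-ratio scaling. Of the 5 neighbours, 2 were higher in MZ-KO embryos and none was lower. Ina, which encodes the intermediate filament protein internexin alpha, averaged 2.39 ± 0.691 FPKM in late MZ-KO embryos and 0.792 ± 0.43 FPKM in late WT embryos (SD, n = 6 each; log2 difference 0.93 ± 0.19 SE, limma adjusted p = 0.00335). Pcgf6, a Polycomb group gene, averaged 8.72 ± 1.31 FPKM in late MZ-KO embryos and 4.86 ± 1.35 FPKM in late WT embryos (SD, n = 6 each; log2 difference 0.75 ± 0.17 SE, limma adjusted p = 0.00605). Both lie beyond Calhm2 as seen from Calhm3. In early embryos Ina averaged 3.29 FPKM in MZ-KO and 3.15 FPKM in WT, and Pcgf6 14 FPKM in MZ-KO and 11.7 FPKM in WT. In each line both means were lower in late than in early embryos, with Ina in MZ-KO not called (limma adjusted p = 0.114). KO eggs averaged 3.37 FPKM of Ina, 11.1 FPKM of Pcgf6 and 8.23 FPKM of Taf5. The part of RNA stored in the egg in the late levels of these genes was not tested. Median-ratio scaling, under which the median log2 difference of all genes was -0.07 in place of 0.07, gave log2 differences of 0.82 for Ina and 0.57 for Pcgf6, both still called. So did the other alternatives tried and every fit without 1 library.

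The other neighbours tested were not called in late embryos, with a limma adjusted p of 0.411 for Taf5, 0.203 for Usmg5 and 0.208 for Pdcd11. On the other side of Calhm3 the nearest coding gene is Neurl1a, which starts 21055 bases away and encodes a ubiquitin ligase. Neurl1a had 0.1 to 0.192 FPKM in late MZ-KO embryos and 0.077 to 0.274 FPKM in late WT embryos, overlapping ranges below the filter. The processed pseudogene Gm6970 between them was above 0 in 1 late WT library and in no late MZ-KO library. The small nuclear RNA gene Gm23140 was at 0 in every library.

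**Figure D3:**
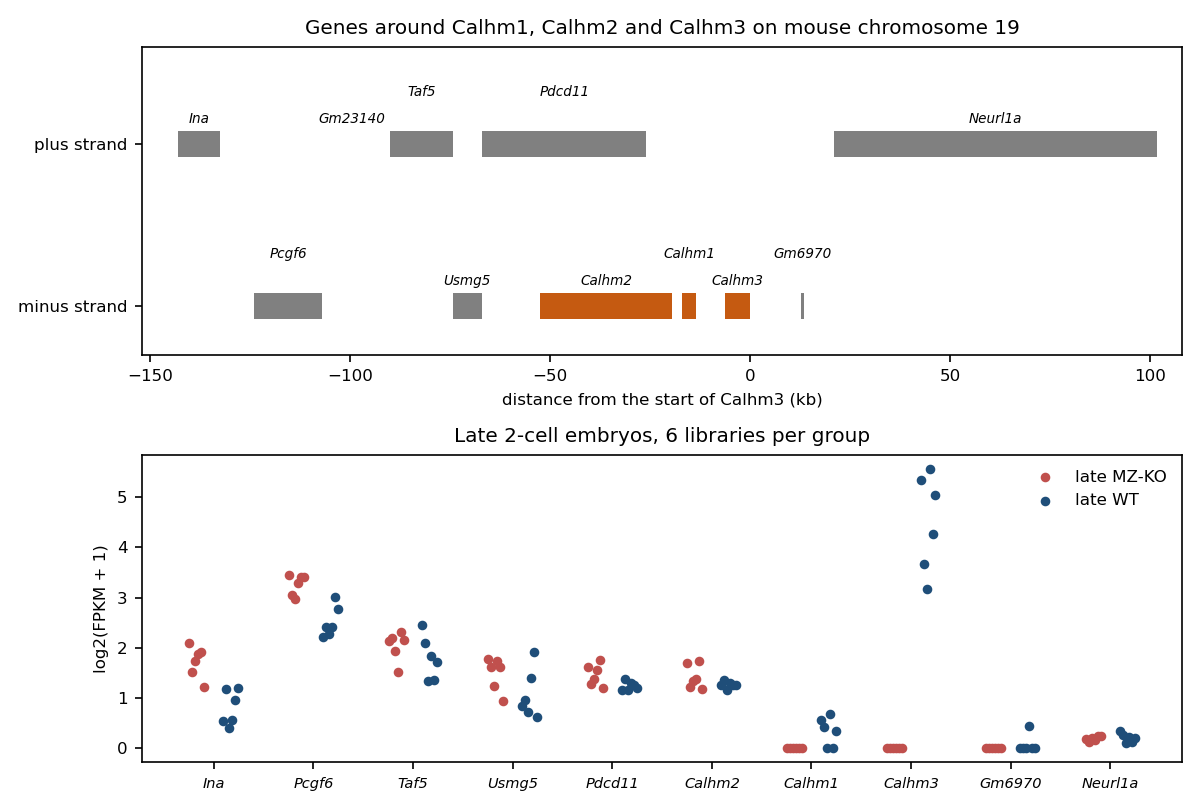
Top, the genes around the cluster drawn to scale by strand against distance in kb from the start of Calhm3, with the 3 Calhm genes in orange. Bottom, log2(FPKM + 1) of these genes in 6 late MZ-KO embryos (red) and 6 late WT embryos (blue), 1 point per embryo; Calhm3 is at 0 in all MZ-KO embryos, while Ina, Pcgf6, Taf5, Usmg5, Pdcd11, Calhm2 and Neurl1a have reads in all of them.

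Few genes shared the pattern for which Calhm3 was picked. Besides Calhm3, 14 of the 54532 genes were listed at 0 in all 6 late MZ-KO libraries and above 0 in all 6 late WT libraries, making 15, and 19 genes had the opposite pattern. Calhm3 had the highest late WT mean of the 15. The next named ones were Mir92-1 at 7.98 FPKM, Mirlet7f-1 at 2.62 FPKM, Rnu11 at 2.24 FPKM and Mir6910 at 1.75 FPKM in late WT embryos, genes of 66 to 134 bases for small RNAs, in which single reads weigh heavily. Rpsa-ps3, a processed pseudogene, had 0.383 FPKM and Olfr845, an olfactory receptor gene, had 0.136 FPKM. Of the 15 genes, Calhm3 alone was also above 0 in all 8 early WT libraries and at 0 in at least 5 early MZ-KO libraries, a condition chosen after its values were seen.

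The genes whose levels ran most like Calhm3 were ranked over the 32 libraries, which include the late values by which Calhm3 was picked, so a high level in late WT embryos follows from the ranking. By Pearson r of log2(FPKM + 1), with clone-based symbols left out, these were Tdpoz3 (0.923), the nuclear receptor gene Rxra (0.916), Pramef6 (0.891), Acp4 (0.884), Qpctl (0.883) and the zinc finger gene Zfp217 (0.879). The libraries differ in stage and depth, for which r was not adjusted, and 23 genes of any symbol reached the last of these values. Tdpoz3 averaged 0.287 FPKM in late MZ-KO embryos and 7.15 FPKM in late WT embryos. Rxra averaged 0.281 FPKM in late MZ-KO embryos and 1.79 FPKM in late WT embryos. None of the 6 was among the 15 genes listed at 0 in all late MZ-KO libraries. Tdpoz3 and Pramef6 belong to multicopy families whose reads can be shared. With Spearman correlation in place of Pearson, 0 of the 6 stayed among the top 6, and with a pseudocount of 0.1, 2 did.

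The other 3 mouse Calhm genes had patterns of their own. Calhm4 was present in eggs, at 0.487, 1.613 and 1.839 FPKM in KO eggs and 1.063, 1.632 and 1.72 FPKM in WT eggs (log2 difference -0.14 ± 0.27 SE, limma adjusted p = 0.897). Of all 6607 genes tested in eggs, 0.333% were called. Calhm4 fell in WT early embryos, which averaged 0.622 ± 0.317 FPKM (SD, n = 8), against 1.47 ± 0.357 FPKM in WT eggs (SD, n = 3; log2 difference -0.62 ± 0.18 SE, limma adjusted p = 0.0143), where 51.3% of 8619 genes were called. Without WT egg library 1 or 3 that adjusted p was 0.0701 or 0.063. In the knockout-labelled line Calhm4 averaged 1.31 ± 0.724 FPKM in KO eggs and 0.564 ± 0.26 FPKM in early MZ-KO embryos (SD, n = 3 and 6). There it did not pass the filter and was not tested. In late embryos Calhm4 was above 0 in 3 of 6 MZ-KO libraries and in 1 of 6 WT libraries. Calhm5 did not exceed 0.104 FPKM in any library.

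Calhm6 was above FPKM 1 in every late embryo of both genotypes. It had 4.799, 5.773, 6.538, 8.324, 9.382 and 12.973 FPKM in late MZ-KO embryos and 1.793, 2.396, 2.969, 4.52, 4.56 and 5.754 FPKM in late WT embryos. The ranges overlapped at 4.799 to 5.754 FPKM. Calhm6 was higher in late MZ-KO than in late WT embryos (log2 difference 0.95 ± 0.26 SE, limma adjusted p = 0.0158). With no filter on low genes the adjusted p was 0.0545. Calhm6 rose late over early in MZ-KO embryos, by 2.99 ± 0.19 (log2 difference, SE; limma adjusted p = 4.12e-09; 81.7% of 8944 genes called), and in WT embryos, by 1.93 ± 0.19 (limma adjusted p = 1.31e-07; 85.0% of 9319 genes called). Calhm6 is known from immune cells, and the summed level of 5 blood and immune markers was 15.6 to 74.9 FPKM in late MZ-KO embryos and 4.95 to 12.9 FPKM in late WT embryos. Of these markers Ptprc was at 0 in all 12 late libraries, Hba-a1 had 14.6 to 73.5 FPKM in late MZ-KO and 4.71 to 12.4 FPKM in late WT embryos, and Cd74 had 0.799 to 6.97 FPKM in late MZ-KO and 0.019 to 3.57 FPKM in late WT embryos. The remaining markers did not go the same way. Lyz2 reached 0.22 FPKM in late MZ-KO and 0.606 FPKM in late WT embryos. Hbb-bs was listed at 0 in every late MZ-KO library and reached 0.056 FPKM in late WT embryos. The part of these markers in the Calhm6 result was not tested.

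**Figure D4:**
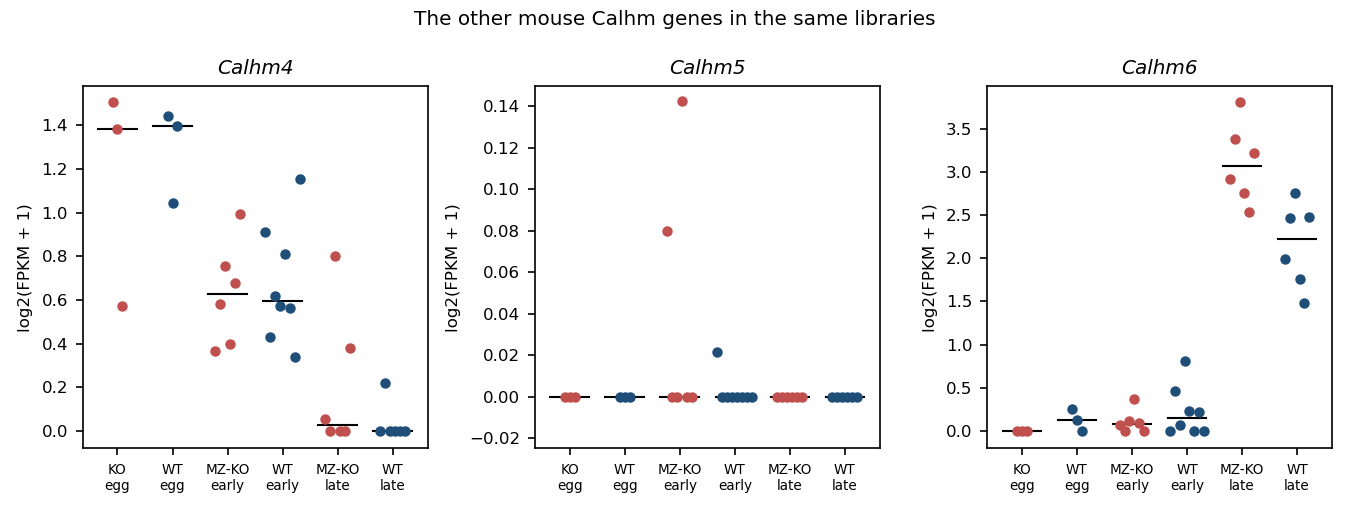
FPKM of Calhm4, Calhm5 and Calhm6 in each library, as log2(FPKM + 1) on the vertical axes, for the same 6 groups, with KO and MZ-KO in red and WT in blue; lines are group medians. Calhm4 is highest in eggs, Calhm5 stays at or near 0, and Calhm6 reaches 4.799 to 12.973 FPKM in late MZ-KO and 1.793 to 5.754 FPKM in late WT embryos.

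Genes that act beside CALHM channels in taste cells were uneven in level. Plcb2, the phospholipase of taste signalling, averaged 0 FPKM in all eggs and in both late groups. Gng13, a G protein subunit of taste cells, averaged 2.54 FPKM in late MZ-KO and 1.74 FPKM in late WT embryos (limma adjusted p = 0.198). Zdhhc7 averaged 3.43 FPKM in late MZ-KO and 2.85 FPKM in late WT embryos (limma adjusted p = 0.42). The taste receptor genes Tas1r3 and Tas1r1 were not tested in late embryos and differed in direction. Tas1r3 averaged 0.232 FPKM in late MZ-KO and 0.808 FPKM in late WT embryos, and Tas1r1 1.09 FPKM and 0.795 FPKM. Of 17 taste genes, 3 were tested in late embryos and 1 was higher in MZ-KO than in WT, where 31.9% of all genes were called. That gene was Trpm4, a calcium-activated cation channel, at 3.24 FPKM in late MZ-KO and 1.93 FPKM in late WT embryos (log2 difference 0.55 ± 0.17 SE, limma adjusted p = 0.0272). Under median-ratio scaling its adjusted p was 0.102, with no filter 0.0647, and without any of late MZ-KO libraries 2, 3 and 4 or late WT libraries 1, 4 and 5 it lay between 0.0527 and 0.0607. In early embryos 1 was tested and was lower in MZ-KO than in WT, where 3.28% of 7675 genes were called. It was Zdhhc3, the gene of a palmitoyltransferase known to act on CALHM1, at 0.596 FPKM in early MZ-KO and 1.13 FPKM in early WT embryos (log2 difference -0.41 ± 0.10 SE, limma adjusted p = 0.0461). This call was lost with a pseudocount of 0.1, at an adjusted p of 0.0598, and with no filter, at 0.126. It was also lost without WT early library 1 or any 1 MZ-KO library, at 0.0518 to 0.107. With 1 library left out, Zdhhc3 passed the filter in 8 fits, and the call stood in 1 of them. In the remaining fits, each without 1 WT library, it fell below the filter and was not tested. The log2 difference of all genes had a median of 0.07 in the late and 0.05 in the early comparison.

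Among 27 other large-pore channel genes, 4 were tested in early and 2 in late embryos between genotypes, and none was called. Of all genes tested, 3.28% were called in early and 31.9% in late embryos. With so few channel genes tested, the lack of calls is not read as a result about them. The median log2 difference of the channel genes tested, MZ-KO over WT, was -0.01 in early and 0.29 in late embryos. The most abundant was Gja4, the connexin 37 gene of the oocyte's gap junctions, with 62.5 FPKM in early MZ-KO and 42.2 FPKM in early WT embryos (limma adjusted p = 0.236) and 2.36 FPKM in late MZ-KO and 0.884 FPKM in late WT embryos (limma adjusted p = 0.187). Gja4 fell late over early in both lines. In MZ-KO embryos the log2 difference was -4.39 ± 0.40 (SE), with a limma adjusted p of 1.62e-07. In WT embryos it was -4.68 ± 0.32 (SE), with a limma adjusted p of 1.39e-09. Late over early, 81.7% of all genes tested were called in MZ-KO and 85.0% in WT embryos.

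Of 24 receptors for ATP and adenosine and enzymes that degrade extracellular nucleotides, 1 was tested in early and 2 in late embryos between genotypes. None was called, where 3.28% of all genes tested were called in early and 31.9% in late embryos. With so few of the 24 tested, this is not read as a result about them. P2rx4, an ATP-gated cation channel, averaged 3.85 ± 0.741 FPKM in late MZ-KO and 3.13 ± 1.08 FPKM in late WT embryos (limma adjusted p = 0.335). P2rx4 rose late over early in both lines. In MZ-KO embryos the log2 difference was 1.79 ± 0.14 (SE), with a limma adjusted p of 3.64e-08, where 81.7% of all genes were called. In WT embryos it was 1.46 ± 0.15 (SE), with a limma adjusted p of 1.48e-07, where 85.0% were called. Entpd1, an enzyme that breaks down extracellular ATP, averaged 1.24 FPKM in late MZ-KO and 1.71 FPKM in late WT embryos (limma adjusted p = 0.0933).

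Of 33 calcium-handling genes of the egg and embryo, 7 were tested in late embryos. In MZ-KO over WT, 1 was higher and 1 lower, against 31.9% of all genes called in this comparison. Calm3, 1 of the genes for calmodulin, averaged 5.99 ± 1.15 FPKM in late MZ-KO and 2.02 ± 1.07 FPKM in late WT embryos (SD, n = 6 each; log2 difference 1.27 ± 0.23 SE, limma adjusted p = 0.00146). Orai1, the pore of store-operated calcium entry, averaged 2.42 FPKM in late MZ-KO and 8.83 FPKM in late WT embryos (log2 difference -1.44 ± 0.28 SE, limma adjusted p = 0.00219).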

How the data were processed

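Single eggs and embryos were sequenced with SMART-seq. The submitters' processing notes name TopHat2, DESeq, DESeq2 and the mm10 build, without tool versions. FPKM values were deposited by the authors, 1 column per library. Column names give the group and no replicate number, so libraries were numbered in column order. A header with transposed letters was read as late MZ-KO, since its columns gave the authors' mean within 3.3e-06.

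For genes of at most 2000 bases, low values came out as whole reads over the genomic span, within 0.1 read, for 99.3% or more in every library. This gave depths and the read numbers quoted, which are approximate.

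Log2(FPKM + 1) was tested with limma 3.58.1 (R 4.3.3, statmod 1.5.0; trend, robust) for genes that reached FPKM 1 in a number of libraries no lower than the smaller group's size. Genes with a Benjamini-Hochberg p under 0.05 were called. No count test was run because the table holds FPKM. A fold change on this scale understates low genes. The 3 Calhm genes were also tested with exact permutation tests (scipy 1.17.1, two-sided). The limma step was tested on simulated data. Alternatives were a pseudocount of 0.1, no filter, median-ratio scaling, a fit of all 6 groups and leaving out each library.

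Named genes were the 3 Calhm genes, the genes most like Calhm3 (6) and Calhm2 (3) without clone-based symbols, up to 6 genes sharing the zero pattern, neighbours within 100 kb and up to 4 genes from each of 5 lists. Plcb2, Tas1r1 and Tas1r3 of the taste list were named outside this rule. Members and lists were chosen with earlier results of these data known. The early-embryo result of the calcium-handling list is not reported here.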

Additional observations from a re-analysis of the deposited data

Results flagged for a closer look

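Within groups of 6 or 8 libraries, 5 of 19 group values of the Calhm genes had a library far from its nearest neighbour relative to the range of the group (Dixon's test). Chance gives about 1 in 20 where values are normally distributed, which does not hold for groups made mostly of zeros, so the count is not read against it. Calhm3 had 0.581 FPKM in early MZ-KO library 4, with the other 5 libraries at 0. Calhm3 had 5.272 FPKM in WT early library 3, with the next library at 1.961 FPKM. Calhm6 had 0.296 FPKM in early MZ-KO library 4. Calhm4 had 0.166 FPKM in WT late library 2, with the other 5 at 0. Calhm5 had 0.015 FPKM, about 2 reads, in WT early library 1, with the other 7 at 0.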

How the results depend on the processing

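No paired analysis was possible because the columns carry no replicate numbers. In early embryos the limma fit with no filter kept the log2 differences of MZ-KO over WT at -0.52 for Calhm1 and -0.93 for Calhm3, with adjusted p of 0.454 and 0.386. A fit of all 6 groups also gave -0.93 for Calhm3, at an adjusted p of 0.125. Early over egg in WT, no filter gave 0.52 for Calhm1 at an adjusted p of 0.318, and leaving out 1 library gave 0.39 to 0.59. Calhm3 there passed the threshold with a pseudocount of 0.1, at 3.21, and with all 6 groups, at 1.04, and leaving out 1 library gave 0.81 to 1.16. For Calhm2 in eggs, at 0.00, median-ratio scaling turned the sign, at -0.00, and leaving out 1 library gave -0.01 to 0.03. Of the 6 genes most like Calhm3, 2 stayed with a pseudocount of 0.1 and 0 with Spearman correlation.

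Counts of called genes moved as follows, and the number of genes tested also differed between settings. In eggs, 22 of 6607 genes became 8 of 6607 with a pseudocount of 0.1 and 6 of 25001 with no filter. Without 1 library there were 6 to 38. In early embryos, 252 of 7675 became 56 of 34721 with no filter, and 105 to 351 without 1 library. In late embryos, 2802 of 8772 became 4935 of 14154 in a fit of all 6 groups. Late over early, with no filter, 14095 of 34488 genes were called in MZ-KO in place of 7303 of 8944. In WT, 15824 of 35462 were called in place of 7923 of 9319. Early over egg in WT, median-ratio scaling gave 2291 higher and 2451 lower of 8597 genes, in place of 2623 and 1800 of 8619. The cause was not tested. Depth limits low values: 1 read of Calhm1 was worth up to 0.0414 FPKM among early WT libraries.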

Other observations

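Obox8, a homeobox gene of a multicopy family that came up after the values were seen, had its highest value of each early group in the library that was highest for Calhm3. Among early MZ-KO embryos it was at 2.891 FPKM in library 4 and listed at 0 in the other 5. Among early WT embryos it was at 8.318 FPKM in library 3, at 1.876 FPKM in library 7 and at 1.436 FPKM in library 6. In late embryos Obox8 was high in both genotypes, at 383.105 to 425.328 FPKM in MZ-KO and 372.521 to 630.76 FPKM in WT libraries, where Calhm3 was at 0 in MZ-KO and at 8.059 to 46.418 FPKM in WT libraries.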
